A study of Homo sapiens with 6 samples.

Results

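The S100A genes encode small calcium-binding proteins, and their transcript levels were examined in MDA-MB-231, an established cell line from a human breast tumor. The members were the genes whose symbol is S100A followed by a number, and 9 of the 15917 genes in the deposited table met this rule. Total RNA was sequenced in 6 libraries. Of these, 2 came from a control hairpin line (shCTRL), 2 from the knockdown line shRBMS3-B3 and 2 from the knockdown line shRBMS3-C3. Both knockdown lines carry hairpins that target *RBMS3*, which encodes an RNA-binding protein that the study examined as a regulator of mRNA stability. All groups share the luciferase-labeled parental line, its growth medium and, as the methods describe hairpin lines, lentiviral transduction followed by puromycin selection.

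The table gives each gene 1 mean normalized count pooled over libraries, that is, counts divided by a size factor for depth and averaged. Single libraries could not be examined, so the levels below carry no replicate error, the depth of each library is unknown, and a difference between groups could not be computed or tested. The labels do not say which libraries entered the mean, and the supplement describes the comparison with 2 biological replicates on each side, fewer than the 6 libraries of the series, so this is not settled. The remaining columns hold the authors' own comparison of knockdown with control cells and were not used. The reported quantities are therefore the levels of these genes in the pooled cells and the sequence features that go with them. *RBMS3*, the targeted gene, had a pooled mean normalized count of 271.5, which does not show how far each hairpin lowered it.

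S100 proteins are built from a pair of EF-hands, helix-loop-helix units of which the loop holds a calcium ion. They mostly form dimers, and calcium turns a helix outward so that a hydrophobic face can bind a partner protein. Their targets include annexins, nonmuscle myosin and cytoskeletal proteins, and several members are secreted. In breast cancer cells the family is known best for S100A4, which is linked to motility and metastasis. Most of the genes lie together on the long arm of chromosome 1.

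The loop of the C-terminal EF-hand, which has the canonical length also found in calmodulin, is shown for each member because 1 of the 9 departs from it at the positions that hold calcium. Each sequence covers the 36 bases that encode the 12 positions of the loop, read 5′ to 3′ on the coding strand of the GENCODE release 44 representative transcript. The capitals mark the codons of positions 1, 3, 5 and 12, which in the canonical loop supply side chains that hold calcium.
S100A6: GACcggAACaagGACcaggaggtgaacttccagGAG
S100A10: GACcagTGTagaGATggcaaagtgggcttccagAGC
S100A11: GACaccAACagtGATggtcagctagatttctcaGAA
S100A13: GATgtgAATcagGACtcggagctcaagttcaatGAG
S100A4: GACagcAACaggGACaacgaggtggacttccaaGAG
S100A16: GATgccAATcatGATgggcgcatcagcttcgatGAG
S100A2: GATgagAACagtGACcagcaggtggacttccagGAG
S100A3: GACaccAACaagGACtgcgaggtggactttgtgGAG
S100A5: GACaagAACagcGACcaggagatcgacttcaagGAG

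In 8 of the 9 members the translated loop had aspartate at positions 1 and 5, aspartate or asparagine at position 3 and glutamate at position 12. *S100A10*, whose protein is known to hold its open form without calcium, was the exception. Against S100A6 its loop carried N3C and E12S, with the S100A6 residue named before the loop position, counted from 1 at the loop's N-terminal end, and the S100A10 residue after it. *S100A10* was also the member with the second highest level.

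To compare genes, each mean normalized count was divided by the length in kilobases of the gene's representative transcript, and this quantity is the level given below. The most abundant member was *S100A6* (calcyclin) with a mean normalized count of 43517 and a level of 100269. This was the highest level of all 12408 protein-coding genes that could be matched to the annotation. The next protein-coding gene was the mitochondrial *MT-ATP6* with a level of 86398, so that *S100A6* stood 1.16 times above it. Across all kinds of RNA 22 genes lay higher, none of them protein-coding, and 21 of these had a representative transcript under 400 bases. The place of *S100A6* depended on the length used. It was the highest protein-coding gene per kilobase of coding sequence as well, the 2nd per kilobase of the longest annotated transcript, and the 16th by the mean normalized count without any scaling.

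*S100A10* (p11), which binds annexin A2, followed with a mean normalized count of 7988 and a level of 11904, 8.42 times below *S100A6*, a fold that was 5.43 with the longest transcripts. *S100A11*, a partner of annexin A1, had a mean normalized count of 3996 and a level of 7097. Both lay among the highest 2% of genes by level, at percentiles 99.0 and 98.4 of the 15829 genes matched. Without length scaling they lay at percentiles 97.9 and 94.8. *S100A6*, *S100A10* and *S100A11* together made up 91.8% of the summed level of the 9 members, and *S100A6* alone 77.2%.

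The middle of the order held genes with levels within 2-fold of each other. *S100A13*, which takes part in the release of FGF1, had a mean normalized count of 1939 and a level of 4066. *S100A4*, a binding partner of nonmuscle myosin heavy chain, had a mean normalized count of 1815 and a level of 3537. *S100A16* had the higher mean normalized count of 2412 on a longer transcript, and its level was 2058. These 3 genes changed places with the length used: *S100A16* stood above *S100A13* and *S100A4* per kilobase of coding sequence and without scaling. *S100A4* stood above both per kilobase of the longest transcript, where *S100A13* fell to the 6th place because its longest annotated transcript has 2184 bases against 477 in the representative one. Their order is therefore not settled by these values.

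The lowest levels belonged to *S100A2*, *S100A3* and *S100A5*. *S100A2*, an epithelial member that binds p53, had a mean normalized count of 563.7 and a level of 577, at percentile 82.5. *S100A3*, a cysteine-rich member known from the hair cuticle, had a mean normalized count of 262.9 and a level of 354, at percentile 73.3. *S100A5*, known from olfactory neurons, had a mean normalized count of 77.9 and a level of 103. It was the only member below the median level of 137 of all matched genes, at percentile 42.7. Without length scaling both *S100A3* and *S100A5* lay below the median, which was 363.8 over all genes of the table. From *S100A6* to *S100A5* the level fell 973-fold, and the fold was 559 without length scaling and 1327 with 200 bases taken off each transcript. The places of *S100A6*, *S100A10* and *S100A11* at the top and of *S100A2*, *S100A3* and *S100A5* at the bottom were the same under all 5 length scalings tried.

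**Figure D1:**
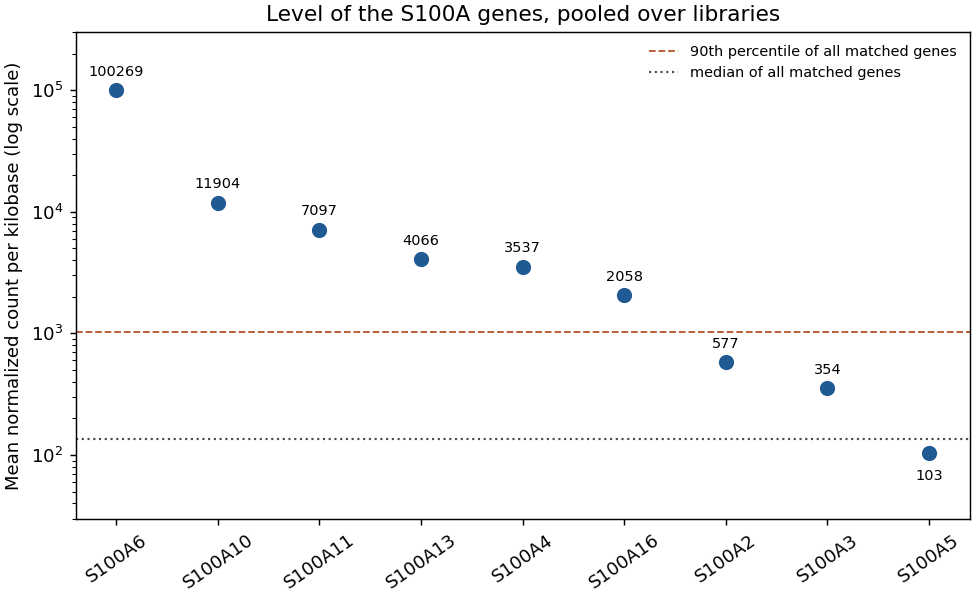
Level of each S100A gene, as the pooled mean normalized count per kilobase of representative transcript on a log axis, with 1 point per gene and no error because the value is pooled. Of the points 6 lie above the dashed line at the 90th percentile of all matched genes (1034), and S100A5 alone lies below the dotted line at their median (137).

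As a group the members were abundant. Their median level was 3537 against 137 over all matched genes. Without length scaling the contrast was smaller, with a median of 1939 against 363.8 over all genes of the table. Of the 9 members 6 were in the top 10% of levels, where 10% of all matched genes lie by construction, and 5 were in the top 5%. By the mean normalized count without length scaling 3 of the 9 were in the top 10%. The 9 genes made up 0.431% of the summed level of all matched genes. The annotation holds 15 protein-coding genes that meet the naming rule. The 6 others are *S100A1*, *S100A7*, *S100A8*, *S100A9*, *S100A12* and *S100A14*, and they were not analysed here.

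Length scaling bears strongly on this family because its transcripts are short. All 9 representative transcripts have 3 exons, and their lengths run from 434 bases for *S100A6* to 1172 bases for *S100A16*, against a median of 3439 bases for protein-coding genes. The longest of them lies at percentile 8.24 of transcript length. Coding sequences cover 273 to 318 bases including the stop codon, which encode 90 to 105 residues, so the members differ in length mainly in their untranslated ends. The 3′UTR runs from 96 bases in *S100A13* to 648 bases in *S100A16*, with a median of 156 bases against 1370 for protein-coding genes. Fewer fragments fit on a short transcript, and when 200 bases, an assumed fragment length, were taken off every transcript, the level of *S100A6* was 185969 and the order of the 9 members was the same.

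**Figure D2:**
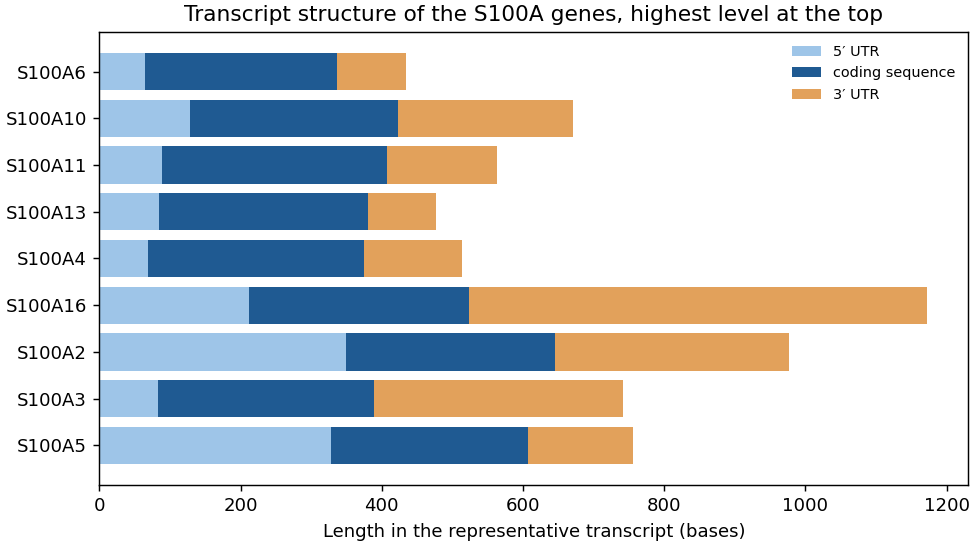
Lengths in bases of the 5′UTR, coding sequence and 3′UTR in the representative transcript of each S100A gene, ordered from the highest level at the top to the lowest at the bottom. The coding part is similar in all 9 genes at 273 to 318 bases, and S100A16 has the longest 3′UTR at 648 bases.

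At the protein level the members were only moderately alike. Over the 36 pairs the identity of the translated coding sequences ran from 26.9% between S100A10 and S100A16 to 60.8% between S100A4 and S100A2, with a median of 37.2%. At the nucleotide level, 31-base stretches of the representative transcripts were searched in the transcripts of all other annotated genes. None were shared for *S100A6*, *S100A10*, *S100A4*, *S100A2*, *S100A3* and *S100A5*. For *S100A11* 8.82% were shared with 4 other genes. For *S100A13* 43.6% were shared with an overlapping noncoding gene on the same strand, ENSG00000271853, so that reads could have been divided between them and its value is uncertain. For *S100A16* the share was 0.876%.

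All 9 genes lie on the minus strand of chromosome 1 in GRCh38, the build that the submitters' processing notes name as hg38. *S100A10* (chr1:151982915-151993859) and *S100A11* (chr1:152032506-152047907) form a pair 38.6 kb apart. After a gap of 1487 kb the other 7 lie within 96.8 kb. They are, in the order of the coordinates, *S100A6* (chr1:153534599-153536244), *S100A5* (chr1:153537147-153541765), *S100A4* (chr1:153543613-153550136), *S100A3* (chr1:153547329-153549258), *S100A2* (chr1:153561108-153567890), *S100A16* (chr1:153606886-153613145) and *S100A13* (chr1:153618787-153631360).

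Some neighbours in this cluster differed widely in level and others less. Neighbours here are next to each other among the 9 members, and the 6 other annotated S100A genes were not placed between them. *S100A6* and *S100A5*, the highest and the lowest member, are next to each other with 0.902 kb between them. On the other side of *S100A5*, after 1.85 kb, *S100A4* had a level 34.3 times higher. *S100A3* lies inside the annotated span of *S100A4*, with no exonic base of its representative transcript in common with it, and its level was 9.99 times lower. *S100A2* and *S100A3* differed 1.63-fold, and *S100A2* and *S100A16* differed 3.57-fold. *S100A16* and *S100A13* differed 1.98-fold, in a direction that turned with the length used. The pair *S100A10* and *S100A11* differed 1.68-fold.

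**Figure D3:**
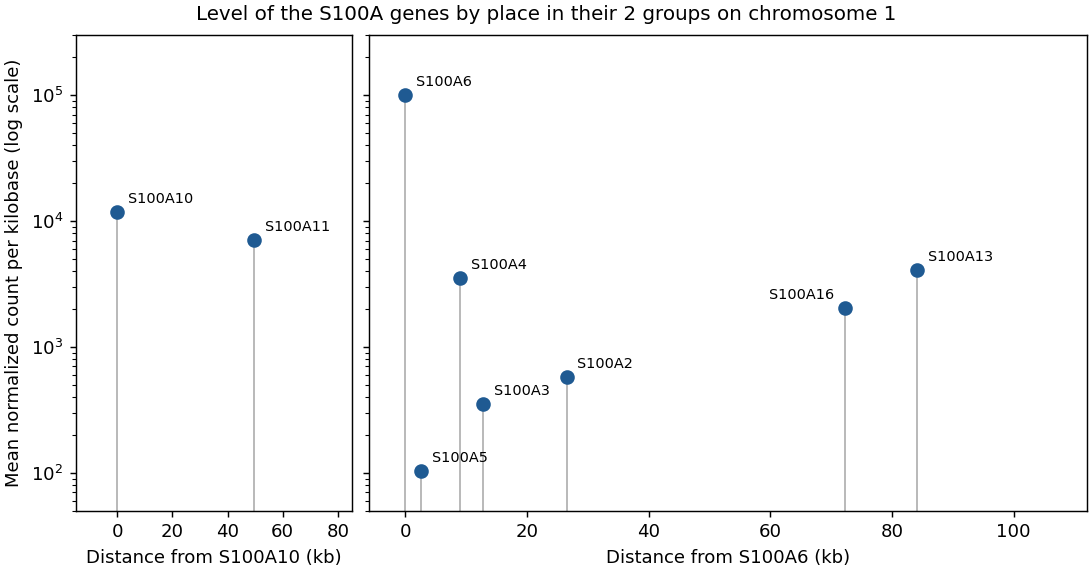
Level of each S100A gene on a log axis against its distance in kilobases along chromosome 1, measured from S100A10 in the left panel and from S100A6 in the right panel. The highest gene, S100A6, and the lowest, S100A5, are neighbours with 0.902 kb between them.

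The promoters were compared because some of these close neighbours differed so widely in level. RefSeq sequences on GRCh38.p14, from 250 bases before to 50 bases after the annotated start, were found for all 9 members. CpG dinucleotides, which are frequent in CpG island promoters of widely used genes, numbered 32 for *S100A10*, 31 for *S100A6* and 22 for *S100A11*. They numbered 12 for *S100A13*, 8 each for *S100A4* and *S100A16*, 5 for *S100A3*, 4 for *S100A2* and 1 for *S100A5*. The windows of the neighbours *S100A6* (chr1:153535942-153536241) and *S100A5* (chr1:153540885-153541184) are printed 5′ to 3′ on the minus strand to show this contrast, with each CpG in capitals.
S100A6: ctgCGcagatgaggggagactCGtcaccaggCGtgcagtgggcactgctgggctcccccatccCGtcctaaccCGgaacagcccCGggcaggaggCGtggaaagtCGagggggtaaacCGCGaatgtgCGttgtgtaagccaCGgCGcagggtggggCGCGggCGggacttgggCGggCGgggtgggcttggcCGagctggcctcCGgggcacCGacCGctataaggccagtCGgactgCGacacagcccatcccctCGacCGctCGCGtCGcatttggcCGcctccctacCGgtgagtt
S100A5: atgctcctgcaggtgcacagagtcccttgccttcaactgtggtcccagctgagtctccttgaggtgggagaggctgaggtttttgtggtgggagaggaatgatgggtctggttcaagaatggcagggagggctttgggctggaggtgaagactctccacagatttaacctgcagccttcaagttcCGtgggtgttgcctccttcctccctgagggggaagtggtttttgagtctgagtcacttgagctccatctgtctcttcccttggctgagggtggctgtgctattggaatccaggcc

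Over the 9 members Spearman's rho between CpG count and level was 0.96, and it was 0.95 over the 7 members without *S100A6* and *S100A10*. Over the 10067 matched protein-coding genes with a promoter sequence it was 0.15, with a median of 26 CpGs. The median of the 9 members was 8, below that of all these genes and of those in the top 10% of levels, which was 27. The points share their libraries and are genes of 1 family, and the relation was noticed in these data, so it is given as a description. For 6 members the RefSeq start and the start of the representative transcript are within 50 bases. For *S100A13*, *S100A2* and *S100A16* they lie 266, 1957 and 3782 bases apart, and with the windows placed at the start of the representative transcript these genes had 11, 5 and 3 CpGs, and rho over the 9 members was 0.93.

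**Figure D4:**
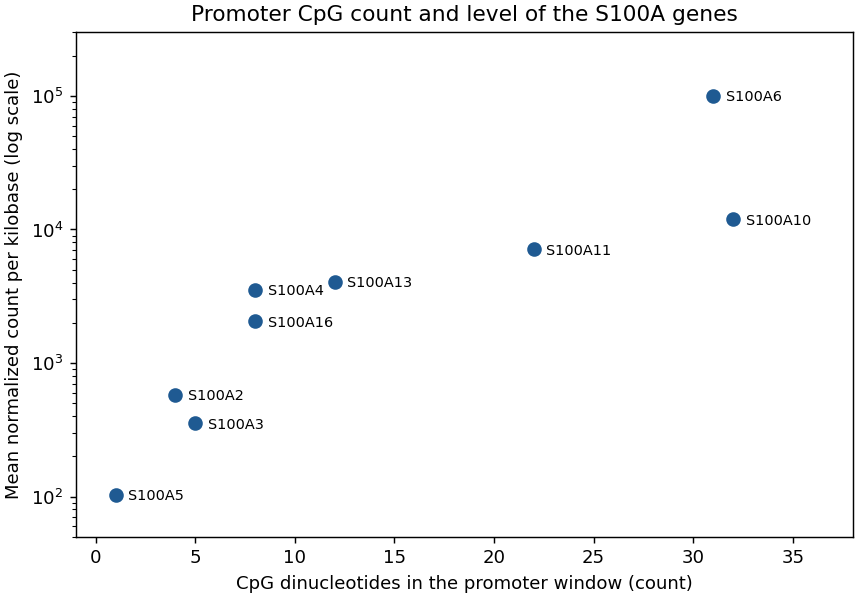
Number of CpG dinucleotides in the 300-base RefSeq promoter window of each S100A gene against its level on a log axis, with 1 point per gene. S100A5 has 1 CpG and the lowest level, and the 3 genes with 22 or more CpGs have the 3 highest levels.

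The windows were also searched on both strands for TATAAA, the core of the TATA box, for TGANTCA, which AP-1 factors bind, and for CCAAT. The exact letters TATAAA were found only in *S100A4*, 31 bases before the start, and in 11.5% of the 35116 RefSeq promoters of this length. Variants of the TATA box were not searched, and the window of *S100A6* printed above holds the near match tataag. The stretch chr1:153545820-153545849 is shown 5′ to 3′ on the minus strand with the match in capitals.
S100A4: gcctggctggggTATAAAtaggtcagacct

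TGANTCA was found in *S100A3* and *S100A5*, and in 7.71% of all promoters. CCAAT was found in *S100A16*, *S100A3* and *S100A5*, and in 34.6% of all promoters. These are matches of letters in a short window and do not show binding.

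The 3′UTRs were searched for the AUA element, because the study examined RBMS3 as a protein that binds it. The element was written as 7 bases, with any base but C, then A or T, then ATA, then A or T, then A, and only the transcript strand was read. It was found in 8 of the 9 members, which is 88.9%, and not in *S100A4*. Among the 3199 protein-coding genes of the table with a 3′UTR of 96 to 648 bases, the range of the members, 68.0% had at least 1 match. The 8 members held 9 matches, and 8 of these covered AATAAA, the usual polyadenylation signal, preceded by a base that the element allows. AATAAA itself was present in 8 of the 9 members and in 73.8% of the 3′UTRs in this range of lengths. The paper's methods report AATAAA as the most significant motif in the RBMS3 binding sites mapped by cross-linking and immunoprecipitation. For the same sites the paper also reports enrichment of the AUA element, and an AUA element found by a search against scrambled sequences. Whether RBMS3 binds any of the matches here was not tested. The 9 matches are shown with 11 bases on each side and the match in capitals. The 8 on AATAAA cannot be told apart from the polyadenylation signal by their letters.
S100A6: tcaagggctgaAAATAAAtagggaagatg
S100A10: agcaaatgtaaAAATAAAatctaactctc
S100A10: ttgccctcaatAAATAAAgttctttttta
S100A11: cctgccaatagTAATAAAgcaatgtcact
S100A13: gcactcttcccAAATAAAgcttcctcctt
S100A16: aaataatgatgATATAAAggctggatttg
S100A2: tttattttgtcAAATAAAgatattaaaaa
S100A3: tatttaactccTAATAAAaaactggcatc
S100A5: tccatgggaggAAATAAAgtttccatcgc

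In *S100A10* (its second match), *S100A11*, *S100A13*, *S100A2*, *S100A3* and *S100A5* the match ended 14 to 26 bases before the end of the transcript, where a polyadenylation signal is usually found. In *S100A6* the match began directly after the stop codon, 90 bases before the end, and a further AATAAA in the same 3′UTR was preceded by a C. The first match of *S100A10* ended 117 bases before the end. *S100A4* holds an AATAAA with no match to the element, because a C stands before it. The only match apart from AATAAA was in *S100A16*, whose 3′UTR has no AATAAA, 70 bases before the end of the longest 3′UTR of the family, and in the same range of lengths 28.0% of 3′UTRs had such a match. Whether *RBMS3* knockdown changed any of these transcripts was not analysed here.

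Partners of S100 proteins were then placed beside the members, from a list of 18 genes of which 15 had a value. Of these 7 were in the top 10% of levels, and their median level was 918, below the 3537 of the S100A genes. This order holds only per length, since the median of the mean normalized counts was 3295 for the partners and 1939 for the S100A genes. By the mean normalized count 9 of the 15 partners were in the top 10%, beside 3 of the 9 S100A genes. *ANXA2*, which forms a complex with S100A10, had a level of 16858, so that *S100A10* stood at 0.706 of its partner. The ratio ran from 0.305 without length scaling to 1.60 with the longest transcripts, so these values do not show which of the pair was higher. *AHNAK*, a large scaffold that binds this complex, had a level of 4078. *S100A10* stood at 2.92 times the level of *AHNAK*. That ratio ran from 0.104 without length scaling to 6.28 per kilobase of coding sequence, so this order is not settled either. *ANXA1*, the annexin partner of S100A11, had a level of 3098, and *S100A11* stood at 2.29 times that level, with a range of 0.921 to 3.61 over the scalings, so that the order of this pair turned without length scaling.

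*MYH9*, the nonmuscle myosin heavy chain to which S100A4 binds, had a level of 9507. *S100A4* stood at 0.372 of it and was lower under all scalings tried, with a highest ratio of 0.593. *CACYBP*, which was named for its binding to S100A6, had a level of 918, and *S100A6* stood 109 times higher, at least 16.5 times under every scaling tried. Among receptors for secreted S100 proteins, *BSG* had a level of 5665 and *TLR4* one of 34.3. Their mean normalized counts without length scaling were 11024 and 434.3. *AGER* and *CD36*, also receptors of S100 proteins, and *MYH14* were not analysed here.

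Among 21 other genes with EF-hands, such as calmodulin and calpain genes, 18 had a value, with a median level of 941 and 8 in the top 10%. The highest was *CALM3*, a calmodulin gene, with a level of 5177, and 3 S100A genes lay above it. *S100A6* was 19.4 times higher than *CALM3*. By the mean normalized count without scaling the highest was *CAPN2*, a calpain gene, with 14103, and only *S100A6* lay above it, 3.09 times higher. The medians then were 1756 for the EF-hand genes and 1939 for the S100A genes, and 9 of the 18 EF-hand genes were in the top 10%. The fused-type S100 genes of the skin lie between the 2 groups of S100A genes on chromosome 1. Of these 7 genes 2 had a value, *FLG* with a level of 39.4 and *TCHH* with 5.24. Without length scaling *FLG* had a mean normalized count of 504.1, above those of *S100A3* and *S100A5*, and *TCHH* had 36.6. *S100B*, *S100G*, *S100P* and *S100Z*, the S100 genes elsewhere in the genome, were not analysed here.

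**Figure D5:**
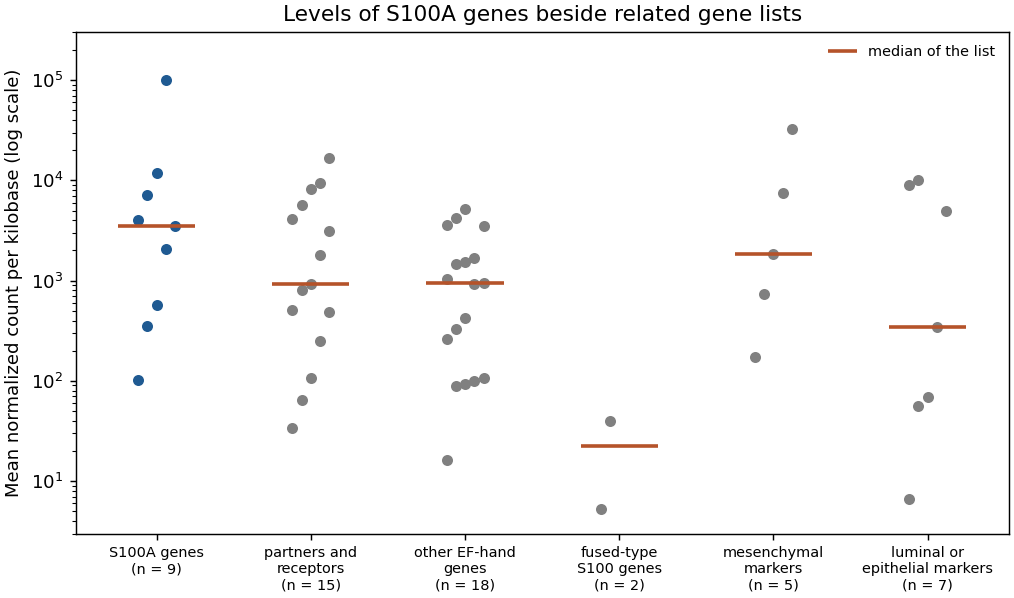
Levels on a log axis of the S100A genes and of 5 lists of other genes, with 1 point per gene and a line at the median of each list. The median of the S100A genes is 3537 per kilobase, against 918 for partners and receptors and 941 for other EF-hand genes. Without length scaling the order against partners turns, at 1939 against 3295.

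Markers of cell types were read as a check of the label. All 5 mesenchymal markers had a value and 3 were in the top 10% of levels. *VIM* had a level of 32189, *AXL* 7502, *CD44* 1850, *FN1* 742 and *ZEB1* 174. The epithelial cadherin *CDH1* had a level of 6.57, at percentile 1.58, while the keratins *KRT8*, *KRT18* and *KRT19* had levels of 9979, 8980 and 4925. These keratins were the 3 in the top 10% among the 7 luminal or epithelial markers with a value. Of the rest, *ERBB2* had a level of 342, above that of *ZEB1*, while *EPCAM* had 69.3 and *GATA3* 55.6. *ESR1* and *PGR* were not analysed here. Of 5 myeloid markers only *CSF1R* had a value, with a level of 9.44, and none of the 4 keratinocyte and 3 lymphoid markers were analysed here. In pooled bulk RNA the share of cells that express a gene and its amount per cell cannot be told apart.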

How the data were processed

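RNA was extracted with Trizol and made into stranded total RNA libraries, with depletion of ribosomal cDNA, and sequenced as paired ends. Per the labels, Salmon, DESeq2 and hg38 were used by the authors, with no version or role given. The authors deposited a table with a column of signal, the mean normalized count of each gene over libraries, at least 26.7 in every row. The table also holds the fold changes, standard errors, test statistics and p-values of the authors' comparison, which were not used. There were 0 columns of single libraries, so no count test, group comparison or leave-one-out fit was made, and no interval is given.

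Of the 15917 Ensembl identifiers, 15829 were found in GENCODE release 44. The mean normalized count was divided by the length of the MANE Select transcript, or else of the Ensembl canonical transcript or, failing both, the one of longest coding sequence. A percentile is the percent of matched genes at or below a level. Coding sequences were translated and aligned globally in Biopython 1.88 (BLOSUM62, gap opening 10, extension 0.5). Shared stretches were 31-mers of the representative transcript found on the same strand in transcripts of other genes. The search functions were tested on planted sequences. Python 3.11.15, numpy 2.4.6 and matplotlib 3.10.9 were used.

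The genes named in the text, beside the members, follow a separate rule fixed with the lists. It takes the listed relatives, partners, EF-hand genes and cell type markers, and *RBMS3*. *MT-ATP6* and ENSG00000271853 were named after their values were seen. The members and lists were chosen with earlier results of these data known. The CpG count, the promoter motifs, the scaling that takes off 200 bases and a filter at a mean normalized count of 100 were added after the levels were seen.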

Additional observations from a re-analysis of the deposited data

How the results depend on the processing

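The median level of the 9 members, 3537 per kilobase of representative transcript, was 6530 per kilobase of coding sequence, 2058 per kilobase of the longest transcript, 1939 without scaling and 5797 when 200 bases were taken off. The share of *S100A6* in the summed level, 77.2%, was 71.7%, 71.8%, 69.5% and 80.7% under the same alternatives. A version over all S100 genes but the fused type added no gene, since no other such gene had a value, and shows nothing. With genes of a mean normalized count of at least 100 only, which drops *S100A5*, the median level was 3802 and the share 77.2%. The count of members in the top 10% was 6, and 3 without scaling. It was 6 under the other length scalings, among genes with a protein only and with the filter at 100. In the top 5% there were 5 members and in the top 25% there were 7. The partners had 7 genes in the top 10%, 9 without scaling, and 11 in the top 25%. The other EF-hand genes had 8 in the top 10%, 9 without scaling, and 4 in the top 5%. Each alternative changes the length, the background or the line itself, and no cause beyond this was tested. No paired analysis was possible because each level is a mean over libraries. A count test of knockdown against control, another normalization and the omission of single replicates need values per library and were not run, and the authors' own fold changes and p-values were not used. The depth of the libraries is unknown, and *S100A5* and *S100A3* have the smallest mean normalized counts of the family.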
